A study of Rattus norvegicus with 9 samples.

Results

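Calprotectin, lipocalin, interleukin-1 and the chemokines that call in neutrophils and monocytes were followed in the proximal colon of rats fed SPI, WPH or CAS. The 10 genes were S100a8, S100a9, Lcn2, Il1a, Il1b, Cxcl1, Cxcl2, Ccl2, Il6 and Tnf. A probe set of the Affymetrix rat array was taken as a member where its single gene symbol in the platform annotation was one of these. In all, 15 of 8799 probe sets were found for 9 of the 10 genes, and no probe set carried Cxcl1 as its only symbol. Of these, 9 probe sets of 6 genes had a mean signal of at least 100 with at least 1 diet and were compared, while 6 stayed under 100 on all arrays.

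All animals were male Sprague Dawley rats fed soy protein isolate (SPI), whey protein hydrolysate (WPH) or casein (CAS) as the protein of a lifetime diet. Every rat, CAS-fed ones included, had been injected at an age of 90 days with azoxymethane (AOM), which causes colon tumors, at 15 mg/kg and on 2 occasions, and non-tumor tissue of the proximal colon was collected after 40 weeks. The tissue was the whole wall with its smooth muscle. For each diet, equal RNA amounts from 7 rats made up 1 pool, and 3 cRNA targets made in parallel from each pool were hybridized, giving 3 arrays per diet. The spread within a diet is therefore technical, and each p-value compares pools and not rats.

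S100A8 and S100A9 pair to form calprotectin, a calcium- and zinc-binding protein that makes up much of the cytosol of neutrophils and is measured in stool as a sign of gut inflammation. Lipocalin 2 withholds iron from bacteria by binding their siderophores, and it is made by neutrophils and by stressed epithelium. Interleukin-1α is held ready in epithelial cells and is released when they are damaged, whereas interleukin-1β is made by myeloid cells and is cut to its active form by caspase-1. Both act through the same receptor to switch on NF-κB, the factor that turns on chemokine genes, with CXCL1 and CXCL2 drawing neutrophils and CCL2 drawing monocytes.

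All arrays had a trimmed mean signal of 500.7 to 500.8, and 58.6 to 60.2% of their probe sets reached 100. The hybridize date and time in the instrument settings placed the arrays in 3 rounds, split at gaps of over 30 minutes. These are called wash rounds here, a name the settings do not give. Round 1 held the 3 CAS arrays and WPH replicate 2, round 2 held WPH replicates 1 and 3 with SPI replicates 1 and 2, and round 3 held SPI replicate 3 alone. SPI and CAS thus shared no round, and a fit with the round as a block links them only through the WPH arrays. The 3'/5' signal ratio of β-actin, a sign of RNA integrity, was 2.21 ± 0.127 with SPI, 2.98 ± 0.488 with WPH and 1.86 ± 0.025 with CAS (SD, n = 3 each), without overlap between diets, while that of GAPDH overlapped. Of the defining genes of colon epithelium, all 14 measured were at 100 or more on at least 1 array, and the 9 measured smooth muscle genes were too.

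The promoters of the genes are shown because 5 of the genes with a compared probe set passed the test as higher with SPI and Il1b did not. RefSeq's table of the rat assembly GRCr8 gave promoters of 8 of the 10 genes, each from 250 bases before to 50 bases after the start of transcription. None was given for S100a8 or Ccl2, so of the 5 genes only S100a9, Lcn2 and Il1a could be shown beside Il1b. Each was searched on both strands for GGGNNNNNCC (NF-κB), TTGCNNAA (C/EBP) and TGANTCA (AP-1), and matches are in capitals. The sequences lie at chr2:178490573-178490872 (S100a9), chr3:36081731-36082030 (Lcn2), chr3:136989968-136990267 (Il1a) and chr3:137036532-137036831 (Il1b), all on the minus strand, and read 5′ to 3′:
S100a9: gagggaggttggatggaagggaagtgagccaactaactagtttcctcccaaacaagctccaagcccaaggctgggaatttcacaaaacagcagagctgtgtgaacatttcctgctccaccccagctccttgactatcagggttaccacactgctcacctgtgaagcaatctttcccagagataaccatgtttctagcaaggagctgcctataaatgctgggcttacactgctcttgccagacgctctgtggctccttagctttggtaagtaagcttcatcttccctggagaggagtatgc
Lcn2: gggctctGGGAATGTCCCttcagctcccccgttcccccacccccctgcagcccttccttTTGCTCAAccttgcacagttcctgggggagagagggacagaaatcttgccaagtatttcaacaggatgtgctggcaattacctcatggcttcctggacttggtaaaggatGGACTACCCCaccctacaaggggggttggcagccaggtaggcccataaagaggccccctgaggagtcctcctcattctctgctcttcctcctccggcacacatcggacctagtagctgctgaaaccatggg
Il1a: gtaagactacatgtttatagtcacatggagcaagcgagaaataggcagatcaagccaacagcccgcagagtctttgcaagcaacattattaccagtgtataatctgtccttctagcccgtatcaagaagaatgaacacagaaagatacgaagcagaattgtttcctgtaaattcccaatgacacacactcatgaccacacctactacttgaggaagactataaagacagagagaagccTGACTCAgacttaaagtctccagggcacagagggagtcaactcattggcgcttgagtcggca
Il1b: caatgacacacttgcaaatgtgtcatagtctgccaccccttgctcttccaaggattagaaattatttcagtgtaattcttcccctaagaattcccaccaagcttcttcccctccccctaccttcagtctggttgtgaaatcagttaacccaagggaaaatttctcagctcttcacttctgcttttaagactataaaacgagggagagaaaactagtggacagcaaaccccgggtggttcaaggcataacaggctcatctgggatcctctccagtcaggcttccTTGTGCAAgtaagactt

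Of 33469 rat promoters of the same length, 47.3% held the NF-κB letters, 10.6% the C/EBP letters and 7.33% the AP-1 letters, so the first are found in many promoters of any kind. The Lcn2 promoter held 3 NF-κB matches, the first pair overlapping from 243 and 242 bases before the start and the other from 81 bases before it, and 1 C/EBP match from 191 bases before it. Il1a had an AP-1 match from 12 bases before the start. Il1b had a C/EBP match that began 33 bases after it, and S100a9 had no match in this window. Cxcl1, Cxcl2, Il6 and Tnf, which were unmeasured or dim here, held 4, 3, 3 and 2 NF-κB matches. Those of Cxcl1 overlapped in pairs, from 103 and 102 and from 84 and 83 bases before the start. Overlapping pairs were also found in Cxcl2 (from 74 and 73 bases before it) and Il6 (from 68 and 67). In Tnf 1 match began 6 bases after the start. In RefSeq's gene order S100a8 and S100a9 are neighbours with no protein-coding gene between them, as are Il1a and Il1b, and Cxcl1 and Cxcl2.

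S100a8, S100a9, Lcn2, Il1a and Ccl2 were higher with SPI than with CAS, and Il1b did not pass the test. Against CAS, 7 of the 9 compared probe sets, of 5 genes, were higher with SPI at an adjusted p under 0.05 in limma, and 0 were lower. Over all 5606 compared probe sets, 12.0% were higher and 10.2% lower. The median log2 change of the member probe sets was 1.50, against -0.01 over all probe sets, and it was also 1.50 after signals under 100 were set to 100. The middle value was that of Il1a on D00403_at both times. All its SPI and CAS arrays lay above 100, so the unchanged median says nothing of the dimmer probe sets. However, 5 of the 9 (those of S100a8, S100a9, Lcn2, 1 of Il1a and 1 of Il1b) reached a mean of 100 with SPI alone, so they entered the comparison only through the diet in which they were high. With no filter, when all 15 probe sets were tested among 8740, 7 were higher with SPI, where 6.91% of probe sets were higher. With the wash round as a block, 2 were higher, those of S100a9 and Ccl2 (X17053mRNA_s_at), where 1.78% of all probe sets were.

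With WPH the picture was mixed. Against CAS, 3 of 9 probe sets were higher (S100a9 and both of Ccl2) and 2 were lower (Lcn2 and 1 of Il1a), beside 20.9% of all probe sets higher and 17.9% lower. The median of the members was 0.05, that of all probe sets 0.06. Only the lower Il1a probe set kept its call with the wash round as a block, where 13.3% of all probe sets were lower. Set against WPH, SPI was higher for 7 of 9 probe sets of the same 5 genes, and none was lower, beside 10.1% higher and 9.83% lower of all. The median was 1.97, against -0.08 over all probe sets, and it fell to 1.33 after signals under 100 were set to 100. With the wash round as a block this count was 6, where 6.28% of all probe sets were higher.

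**Figure D1:**
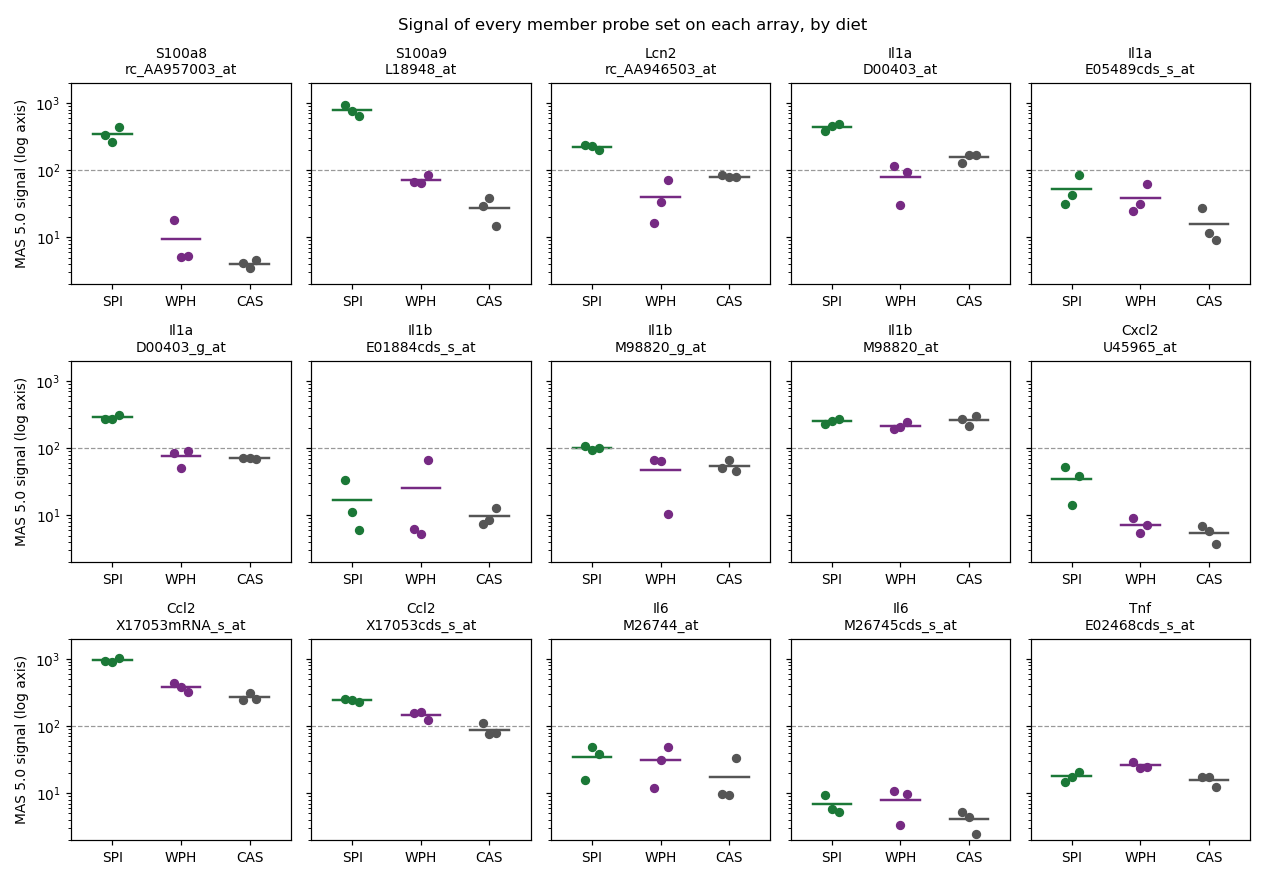
Signal (MAS 5.0, log axis) of each of the 15 probe sets on every array, in SPI, WPH and CAS order, with points for single arrays, bars for the mean of 3 arrays and a dashed line at a signal of 100. S100a8 and S100a9 lie above 266 with SPI and under 86 with WPH and CAS, whereas the brightest Il1b probe set (M98820_at) overlaps in all 3 diets.

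Both subunits of calprotectin were bright only with SPI. S100a8 (rc_AA957003_at) had signals of 329.1, 266.8 and 445.8 on the SPI arrays, against 18.0, 5.1 and 5.2 on the WPH arrays and 4.1, 3.5 and 4.6 on the CAS arrays. S100a9 (L18948_at) had 951.7, 757.0 and 639.4 with SPI, against 65.9, 63.8 and 85.4 with WPH and 29.6, 38.6 and 14.8 with CAS. For each subunit every SPI array lay above every other array, and no WPH or CAS array reached 100. S100a8 was at least 3.47-fold and S100a9 at least 7.83-fold higher with SPI than with CAS, where each signal under 100 is set to 100 for the bound. The same bounds hold against WPH.

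On the log2 scale S100a8 was 6.39 ± 0.94 (SE) higher with SPI than with CAS (limma adjusted p = 0.00063) and S100a9 4.91 ± 0.34 higher (adjusted p = 2.36e-06). Against WPH the changes were 5.44 ± 0.94 (adjusted p = 0.00199) and 3.44 ± 0.34 (adjusted p = 3.85e-05). These log2 changes rest on signals as low as 3.5, and with signals under 50 set to 50 they were 2.76 and 3.95 against CAS. With the wash round as a block, S100a8 kept a log2 change of 5.27 against CAS with an adjusted p of 0.132, and S100a9 one of 4.81 with an adjusted p of 0.00577. Without SPI replicate 3, its brightest array, S100a8 missed the threshold against WPH (adjusted p = 0.0522).

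Between the 2 dim diets, S100a9 was 1.47 ± 0.34 higher with WPH than with CAS on the log2 scale (adjusted p = 0.00519), and the arrays did not overlap, but all 6 lay under 100 and no fold is given. The adjusted p was 0.0942 with the wash round as a block and 0.264 for WPH replicate 2 against the CAS arrays of its own round. S100a8 differed by 0.95 ± 0.94 (adjusted p = 0.461).

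Lcn2, the siderophore-binding lipocalin, passed 100 with SPI alone. Its probe set (rc_AA946503_at) read 239.9, 227.4 and 200.4 with SPI, against 16.2, 33.9 and 71.5 with WPH and 84.5, 78.1 and 78.7 with CAS. All SPI arrays lay above all others, the CAS arrays lay just under 100 with a CV of 4.39%, and the WPH arrays were both lowest and most scattered, with a CV of 69.7%. SPI was at least 2.23-fold higher than either diet, with log2 changes of 1.47 ± 0.45 against CAS (adjusted p = 0.0378) and 2.71 ± 0.45 against WPH (adjusted p = 0.00152). The call against CAS was near its threshold, and it was lost with no filter (adjusted p = 0.0554), with the wash round as a block (adjusted p = 0.425) and without any 1 of the SPI or CAS arrays (adjusted p between 0.0828 and 0.113). That against WPH was lost within the round both diets shared (adjusted p = 0.0705).

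With WPH, Lcn2 passed the test as lower than with CAS (log2 change -1.24 ± 0.45, adjusted p = 0.0478), with all 6 arrays under 100 and so no fold. This call was lost under 18 of 22 alternatives, among them leaving out WPH replicate 1, the lowest array (-0.71, adjusted p = 0.128). The summed signal of 14 colon epithelium markers was between 37090 and 39660 with SPI, 14620 and 16680 with WPH, and 69620 and 76010 with CAS. Of these markers 10 of 14 were lower with SPI than with CAS and all 14 were lower with WPH, beside 10.2% and 17.9% of all probe sets. With the round as a block 6 and 13 were lower, where 152 and 743 of all 5606 probe sets were. The part of these epithelial changes in Lcn2 was not tested. In such bulk RNA, fewer cells of a type and less RNA per cell cannot be told apart.

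Il1a, the alarm cytokine of epithelial cells, was brightest with SPI on both compared probe sets. On D00403_at the SPI arrays read 379.8, 450.4 and 481.2, against 114.5, 30.0 and 92.5 with WPH and 127.4, 167.8 and 170.5 with CAS. SPI was 2.82-fold higher than CAS (log2 change 1.50 ± 0.40, adjusted p = 0.0211) and 5.53-fold higher than WPH (2.67 ± 0.40, adjusted p = 0.000839). The 3 diets did not overlap on this probe set, and SPI stood highest and WPH lowest. WPH was 1.97-fold lower than CAS (-1.17 ± 0.40, adjusted p = 0.0396), a call that was lost under 12 of 22 alternatives. One array carried much of it, for without WPH replicate 2, at 30.0, the log2 change was -0.58 (adjusted p = 0.0521).

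Among called changes of the members, this was the only one whose sign turned with the wash round. WPH replicate 2 was in the round of the CAS arrays, and the other WPH arrays were in a round with SPI arrays. With the round as a block the log2 change of D00403_at with SPI against CAS was -0.35 (adjusted p = 0.695), the opposite sign, while that of WPH against CAS was -2.36 (adjusted p = 0.000483). SPI against WPH kept its call in the blocked fit (2.01, adjusted p = 0.00127) and within the shared round (adjusted p = 0.006). The call against CAS was also lost without CAS replicate 1 (adjusted p = 0.0761), SPI replicate 2 (adjusted p = 0.0516) or SPI replicate 3 (adjusted p = 0.0708).

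The other compared Il1a probe set, D00403_g_at, read 273.3, 274.7 and 315.3 with SPI, against 86.1, 50.6 and 89.8 with WPH and 70.7, 71.4 and 69.8 with CAS. It was at least 2.88-fold higher with SPI than with either diet, at 2.02 ± 0.26 on the log2 scale against CAS (adjusted p = 0.000229) and 1.97 ± 0.26 against WPH (adjusted p = 0.000287). The wash-round block left 1.16 against CAS (adjusted p = 0.141). It gave no sign of a decrease with WPH, where the log2 change from CAS was 0.05 ± 0.26 (adjusted p = 0.899), so the 2 probe sets of the gene disagreed on WPH. A further Il1a probe set, E05489cds_s_at, was dim everywhere, at 30.9 to 83.8 with SPI, 24.4 to 61.8 with WPH and 9.0 to 27.0 with CAS.

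Il1b, the myeloid interleukin-1, did not pass the test with either diet. Its bright probe set, M98820_at, read 230.9, 251.3 and 274.9 with SPI, 194.1, 205.0 and 243.8 with WPH and 272.2, 214.8 and 300.3 with CAS, with overlap among all 3 diets. The log2 change with SPI was -0.05 ± 0.17 against CAS (95% interval -0.42 to 0.33, adjusted p = 0.885), and with WPH it was -0.29 ± 0.17 (interval -0.66 to 0.09, adjusted p = 0.212). On this probe set the interval for SPI lies below the changes of both compared probe sets of Il1a, its neighbour in the genome, in the fit by diet alone. The difference between the 2 genes was not tested. A dimmer probe set, M98820_g_at, read 108.1, 93.7 and 102.2 with SPI, against 65.7, 63.6 and 10.3 with WPH and 50.4, 66.9 and 45.6 with CAS. Its SPI arrays lay above all others, but the log2 change of 0.92 ± 0.64 against CAS did not pass (95% interval -0.49 to 2.33, which takes in both Il1a changes, adjusted p = 0.361). It did pass under 3 of 20 alternatives. These were signals under 50 set to 50 (0.87, adjusted p = 0.0265) and the methods' t-test on linear signals, both unadjusted and after Benjamini-Hochberg adjustment. The third Il1b probe set, E01884cds_s_at, read 65.6 or less on every array.

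**Figure D2:**
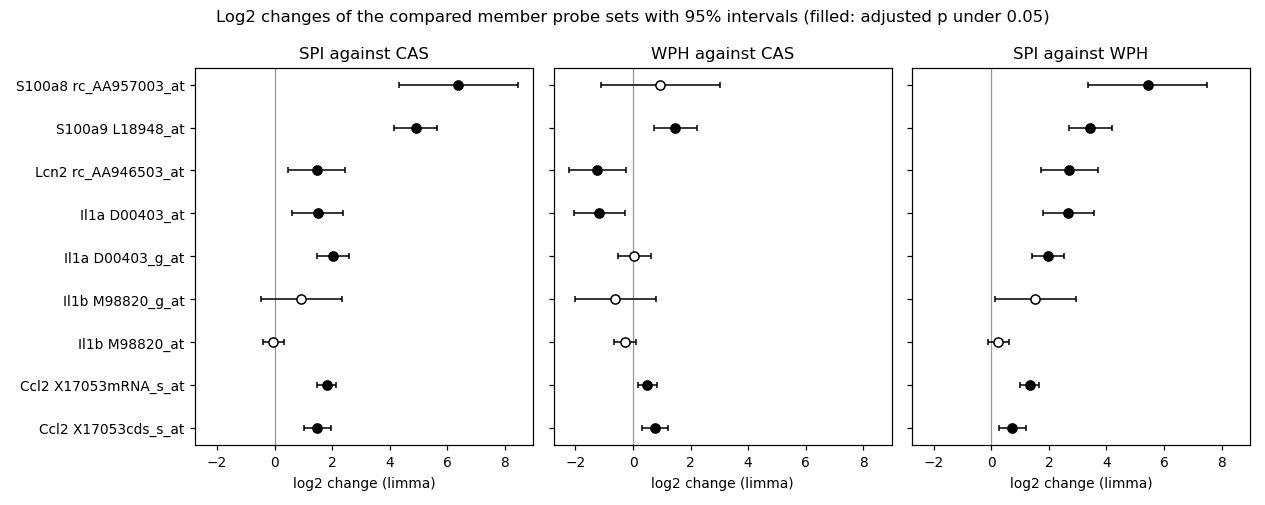
Log2 changes (x axis, limma) of the 9 compared probe sets for SPI against CAS, WPH against CAS and SPI against WPH, with 95% intervals and filled points at an adjusted p under 0.05. The S100a8 and S100a9 changes with SPI are 6.39 and 4.91, Ccl2 is filled in all 3 comparisons, and Il1b is open in each.

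Ccl2, the monocyte-drawing chemokine, was above 100 with every diet on its brighter probe set. On X17053mRNA_s_at the signals were 946.5, 890.7 and 1026 with SPI, 445.7, 385.5 and 318.3 with WPH and 246.6, 311.8 and 254.5 with CAS. All arrays of SPI lay above all of WPH, which lay above all of CAS. SPI was 3.52-fold higher than CAS (log2 change 1.82 ± 0.15, adjusted p = 9.23e-06) and 2.49-fold higher than WPH (1.33 ± 0.15, adjusted p = 0.000106). Both calls were kept under every alternative tried, with log2 changes between 1.71 and 1.93 against CAS and between 1.20 and 1.44 against WPH. The blocked adjusted p against CAS was 0.0145. WPH was 1.41-fold higher than CAS (0.49 ± 0.15, adjusted p = 0.0218), which was lost with the wash round as a block (adjusted p = 0.14) and without CAS replicate 1 or 3 or WPH replicate 1 or 2 (adjusted p between 0.0576 and 0.0848).

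The second Ccl2 probe set gave the same order of diets. X17053cds_s_at read 254.3, 244.0 and 232.0 with SPI, 156.6, 161.5 and 124.4 with WPH and 109.6, 75.3 and 79.1 with CAS. The fold was 2.77 for SPI against CAS (1.49 ± 0.21, adjusted p = 0.000446), 1.68 for WPH against CAS (0.76 ± 0.21, adjusted p = 0.0132) and 1.65 for SPI against WPH (0.73 ± 0.21, adjusted p = 0.0294). With the round as a block the adjusted p values were 0.0521, 0.065 and 0.0882 while the log2 changes were 1.73, 0.90 and 0.84, none smaller than before. The call of SPI against WPH was also lost without any 1 SPI array or without WPH replicate 1 or 3 (adjusted p between 0.0501 and 0.101).

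The neutrophil chemokine Cxcl2 and the cytokines Il6 and Tnf were under 100 on all 9 arrays and were not compared. Cxcl2 (U45965_at) read 52.9, 14.0 and 38.4 with SPI, against 9.2, 5.5 and 7.1 with WPH and 7.0, 5.8 and 3.8 with CAS. Every SPI array lay above every other array at this low level. With no filter the probe set passed the test with SPI against CAS (adjusted p = 0.0139) and against WPH (adjusted p = 0.0357), but all diets lay under 100 and no size of the difference is given. In that fit 8 member probe sets were higher with SPI than with WPH, where 6.14% of all were.

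Il6, the cytokine that drives acute phase proteins in liver, read 16.0 to 48.7 with SPI, 11.9 to 49.2 with WPH and 9.5 to 33.7 with CAS on M26744_at, and 10.8 or less on M26745cds_s_at. Tnf (E02468cds_s_at) read 14.7 to 21.0 with SPI, 23.8 to 29.3 with WPH and 12.4 to 17.6 with CAS. Neither gene passed the test with no filter in any comparison (adjusted p between 0.225 and 0.947). All 3 WPH arrays of Tnf lay above all SPI and CAS arrays. A p that misses the threshold at such signals does not show that the transcripts were absent or equal.

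Of the other interleukin-1 family and signalling genes, 6 of 18 listed were compared. Among them 1 was higher and 0 lower with SPI than with CAS, and 0 higher and 2 lower with WPH (medians -0.04 and -0.57). Beside this and the lists below, 12.0% of all probe sets were higher and 10.2% lower with SPI. With WPH 20.9% of all were higher and 17.9% lower. With the round as a block 0 of the 6 genes were higher and 1 lower with SPI, the receptor gene Il1rl2. Il33, an alarm cytokine of stromal and epithelial cells, averaged 1343 ± 128 with SPI, 637 ± 195 with WPH and 869 ± 64.6 with CAS (SD, n = 3 each), and was higher with SPI than with CAS by 0.63 ± 0.18 on the log2 scale (adjusted p = 0.029, and 0.642 with the round as a block). Il18 averaged 795 ± 146 with SPI, 481 ± 35.1 with WPH and 934 ± 86.1 with CAS, and Casp1, which activates both Il1b and Il18, 1149 ± 70.4, 661 ± 85.7 and 1036 ± 120 in the same order. Both were lower with WPH (-0.96 ± 0.15, adjusted p = 0.000319, and -0.65 ± 0.13, adjusted p = 0.00156), and Casp1 not with the round as a block (adjusted p = 0.0824). The receptor Il1r1, its partner Il1rap and the antagonist Il1rn had probe sets too dim to compare.

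Among TNF and IL-6 relatives, receptors and signalling, 0 of 9 compared genes passed the test with SPI against CAS. With WPH 1 was higher, the receptor Il6r (0.43 ± 0.13, adjusted p = 0.0233, and 0.319 with the round as a block). With SPI Il6r missed the threshold (0.37 ± 0.13, adjusted p = 0.0691). Of the 5 compared NF-κB and C/EBP genes, 0 passed with SPI against CAS, which does not show that they were equal. Cebpb, a factor of acute phase and cytokine genes, averaged 364 ± 24.1 with SPI, 225 ± 27.5 with WPH and 345 ± 31.2 with CAS, lower with WPH than with CAS (-0.62 ± 0.14 on the log2 scale, adjusted p = 0.00455). With the round as a block 0 of the 5 passed in any comparison.

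Other chemokines went both ways. With SPI against CAS, 3 of 7 compared genes were higher (Pf4, Cxcl10 and Ccl11) and 2 lower (Cxcl13 and Cx3cl1), beside 12.0% and 10.2% of all probe sets. With the round as a block none of the 7 passed. Ccl11, the eosinophil-drawing eotaxin, averaged 487 ± 139 with SPI, 693 ± 168 with WPH and 207 ± 50.4 with CAS, higher by 1.22 ± 0.26 with SPI (adjusted p = 0.00623) and 1.75 ± 0.26 with WPH (adjusted p = 0.000267). Cxcl10, a T cell chemokine, averaged 179 ± 19.7 with SPI, 110 ± 20.8 with WPH and 98.3 ± 9.83 with CAS, and was higher with SPI (0.87 ± 0.22, adjusted p = 0.0153). Cx3cl1, the membrane-bound fractalkine, averaged 778 ± 78.0 with SPI, 264 ± 64.2 with WPH and 1331 ± 229 with CAS, lower with both (-0.76 ± 0.18, adjusted p = 0.0103, and -2.35 ± 0.18, adjusted p = 1.68e-06). Of 5 compared chemokine receptors 1 was higher with each diet, the scavenging receptor Ackr3 (0.89 ± 0.20, adjusted p = 0.00849 with SPI). The receptors that read CXCL2 and CCL2, Cxcr2 and Ccr2, were under 100 on every array.

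**Figure D3:**
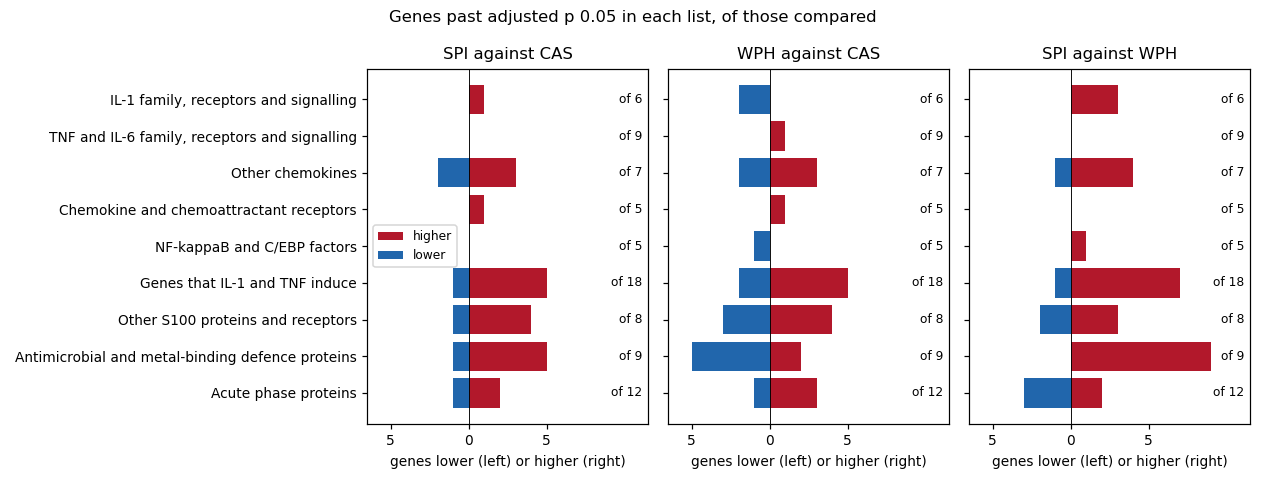
Number of genes higher (right) and lower (left) at an adjusted p under 0.05 in each of 9 lists, for SPI against CAS, WPH against CAS and SPI against WPH, with the number compared at the right edge. In SPI against WPH all 9 antimicrobial and metal-binding genes are higher, whereas the TNF and IL-6 list has 0 of 9, beside 10.1% of all probe sets.

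Of the genes that interleukin-1 and TNF are known to induce, 5 of 18 compared were higher with SPI than with CAS (Vcam1, Hmox1, Mmp3, Mmp13 and Spp1), where 12.0% of all probe sets were, and 1 was lower (Gch1), with a median of 0.34. With the round as a block 3 were higher, Hmox1, Mmp13 and Spp1, where 1.78% of all probe sets were. Spp1, the matrix protein osteopontin, averaged 6130 ± 793 with SPI, 106 ± 31.9 with WPH and 55.0 ± 10.9 with CAS, and was at least 61.3-fold higher with SPI than with CAS (6.81 ± 0.22 on the log2 scale, adjusted p = 3.52e-09). Mmp13, a collagenase, averaged 563 ± 51.0 with SPI, 19.9 ± 8.51 with WPH and 23.1 ± 9.22 with CAS, at least 5.63-fold higher than with CAS (adjusted p = 4.16e-05). Hmox1, which breaks down haem, averaged 1068 ± 39.0, 222 ± 22.1 and 220 ± 35.4 with SPI, WPH and CAS (2.29 ± 0.14 against CAS, adjusted p = 9.39e-07). With WPH against CAS 5 were higher (Icam1, Vcam1, Sod2, Spp1 and Cd44) and 2 lower (Plaur and Gch1).

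Among the other S100 proteins and receptors of calprotectin, 4 of 8 compared genes were higher with SPI than with CAS (S100a4, S100a10, S100b and Anxa2, the annexin that binds S100A10) and 1 lower (S100g), beside 12.0% and 10.2% of all probe sets. The log2 changes of these called genes lay between -0.49 and 0.83, below those of S100a8 and S100a9, and with the round as a block only Anxa2 passed. S100a4, a marker of fibroblasts, averaged 1508 ± 117 with SPI, 1961 ± 223 with WPH and 880 ± 19.5 with CAS (0.78 ± 0.11 with SPI, adjusted p = 0.000401, and 1.15 ± 0.11 with WPH, adjusted p = 6.99e-06). Tlr4, the receptor through which calprotectin signals, averaged 187 ± 21.1 with SPI, 87.7 ± 14.5 with WPH and 276 ± 57.1 with CAS, lower with WPH (-1.64 ± 0.21, adjusted p = 9.84e-05) and not called with SPI (-0.54 ± 0.21, adjusted p = 0.0995). Ager, another receptor of calprotectin, was too dim to compare, as was Cd36.

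Antimicrobial and metal-binding proteins, the class to which calprotectin and lipocalin 2 belong by function, had the highest median log2 change of the 9 lists with SPI against CAS, 1.47. The lists were chosen with earlier results of these data known, so this rank depends on which genes were listed. Reg1a, at means of 84.6 with WPH and 66.4 with CAS, entered the comparison through SPI alone. With SPI against CAS, 5 of 9 compared genes were higher (Lyz2, Slc11a2, Reg3b, Reg3g and Reg1a) and 1 lower (Defb1), and with the round as a block the counts were the same. Against WPH, SPI was higher for 9 of 9. Reg3b, a gut lectin made by epithelium, averaged 15380 ± 1658 with SPI, 452 ± 56.7 with WPH and 225 ± 33.8 with CAS, 68.4-fold higher with SPI than with CAS (adjusted p = 3.07e-10). Slc11a2, the iron and metal ion importer, averaged 6632 ± 567 with SPI, 554 ± 33.1 with WPH and 504 ± 22.9 with CAS (3.72 ± 0.10 against CAS, adjusted p = 7.55e-10). Defb1, an epithelial defensin, averaged 219 ± 81.0 with SPI, 83.6 ± 8.19 with WPH and 2238 ± 102 with CAS, 10.2-fold lower with SPI than with CAS (adjusted p = 3.35e-06).

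Acute phase proteins, which liver makes under IL-6 and IL-1, gave 2 of 12 higher (Lbp and C3) and 1 lower (Serpina1) with SPI, beside 12.0% and 10.2% of all probe sets. With WPH 3 were higher (Hp, Serpina1 and Agt) and 1 lower (A2m), beside 20.9% and 17.9% of all probe sets. With the round as a block 0 were higher and 1 lower with SPI, and 1 higher and 1 lower with WPH. Serpina1, an inhibitor of neutrophil elastase, read 205.6, 213.1 and 234.5 with SPI, 1058.6, 1040.0 and 1030.4 with WPH and 412.5, 441.3 and 398.3 with CAS. The diets did not overlap, and against CAS it was lower with SPI (-0.94 ± 0.11, adjusted p = 0.000123) and higher with WPH (1.32 ± 0.11, adjusted p = 3.09e-06), also with the round as a block (adjusted p = 0.0362 and 0.000527). Lbp, which hands bacterial lipopolysaccharide to the TLR4 complex, averaged 189 ± 13.1 with SPI, 54.6 ± 12.2 with WPH and 63.3 ± 7.03 with CAS (at least 1.89-fold higher than with CAS, adjusted p = 0.00174, and 0.0599 with the round as a block).

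Neutrophils themselves were hardly measured. Only 4 of 18 neutrophil markers had a probe set, and Mmp8, Cxcr2 and Itgam were under 100 on all 9 arrays, at means of 54.0, 27.0 and 7.37 with SPI, 29.3, 39.9 and 31.3 with WPH and 22.8, 22.6 and 21.6 with CAS. The compared one, Alox5ap, passed in no comparison. Mmp8, a collagenase stored in neutrophil granules, read 49.4 to 57.1 with SPI, 13.8 to 42.9 with WPH and 9.9 to 36.7 with CAS, so that its SPI arrays lay above the others at this low level. Itgam went the other way, at 2.9 to 15.4 with SPI, 25.9 to 35.5 with WPH and 17.6 to 23.7 with CAS. Its SPI arrays lay below all others, and Cxcr2 overlapped. The summed signal of the 4, most of it from Alox5ap, was 236.6 to 327.8 with SPI, 170.0 to 284.6 with WPH and 260.2 to 291.7 with CAS. The part of neutrophils in the calprotectin change was not tested.

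Macrophage and monocyte markers were better covered, with 11 of 20 on the array and 8 compared. Their summed signal was 16170 to 16600 with SPI, 8458 to 9055 with WPH and 11910 to 12180 with CAS. Most of the excess of SPI over CAS in this sum came from Lyz2, which averaged 6692 with SPI, 3331 with WPH and 2412 with CAS. With SPI against CAS 4 markers were higher (Aif1, Mmp12, Lyz2 and C1qb) and 2 lower (Cd14 and Ctss). With the round as a block 3 were higher and 0 lower. Mmp12, a macrophage elastase chosen after its values were seen, averaged 1010 with SPI, 120 with WPH and 85.6 with CAS. Cd14 and Ctss averaged 391 and 5843 with SPI, 332 and 2786 with WPH, and 671 and 7302 with CAS. Csf1r, Itgam and Ccr2 were under 100 on all arrays. Of 15 compared small intestine enterocyte genes, 7 were higher and 2 lower with SPI than with CAS, with summed signals of 11680 to 12680, 5354 to 5913 and 7862 to 8563 with SPI, WPH and CAS over 16 genes. Blocked by round, 1 was higher (Cps1) and 1 lower (Fabp1). Smooth muscle sums were 140500 to 143400 with SPI, 188600 to 213900 with WPH and 96690 to 102200 with CAS, with 8 of 9 genes higher with SPI and 8 with WPH than with CAS, and 3 and 9 with the round as a block. The part of these cell types in the member changes was not tested.

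The genes whose signals followed the members most closely over the 9 arrays were found among 2700 bright single-symbol probe sets. S100a8 was most like Spp1 (Pearson r = 0.990), Reg3b (0.981) and Cps1 (0.977), the last a urea cycle enzyme of liver and small intestine. S100a9 was most like the apolipoprotein gene Apoc1 (0.981), the protease gene Ctsk (0.980) and Cps1 (0.974), and Ccl2 was most like Enpp3 (0.984), Ctsk (0.979) and Spp1 (0.978). Lcn2 was nearest to Rbp2, a retinol carrier of enterocytes (0.964), followed by Ctsd (0.934) and Papss2 (0.932). Il1a (D00403_at) was nearest to Tkfc (0.974), Ldhd (0.955) and the iron exporter Slc40a1 (0.949). The 9 arrays came from 3 pools, so these values mostly describe the same order of 3 diet means.

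**Figure D4:**
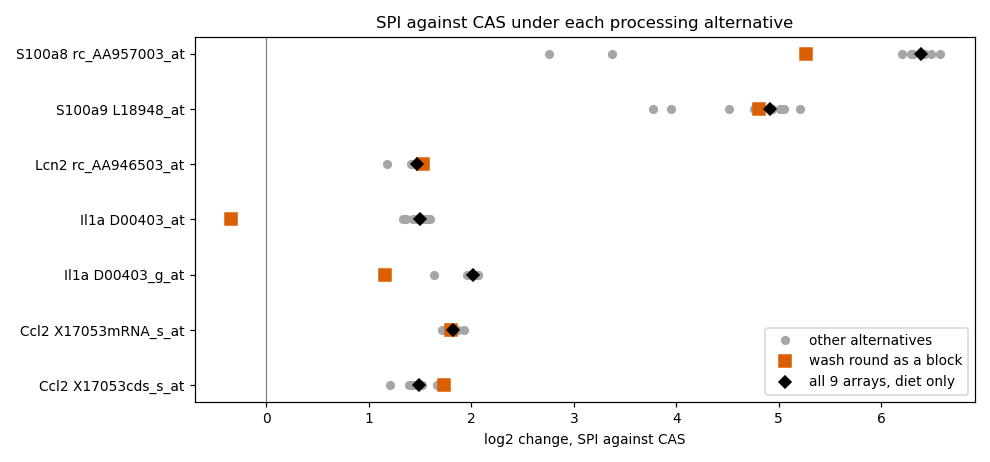
Log2 change with SPI against CAS (x axis) of the 7 probe sets called higher, for the fit of all 9 arrays with diet alone (diamonds), with the wash round as a block (squares) and under the other alternatives (grey points). The square of Il1a on D00403_at lies at -0.35, on the other side of 0 from its diamond at 1.50, while those of Ccl2 (X17053mRNA_s_at) lie at 1.80 and 1.82.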

How the data were processed

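RNA was extracted with TRIzol, and 8 µg of each pool was labelled 3 times in parallel, with 10 µg of cRNA hybridized per array. The deposited values are linear signals that the authors obtained with MAS 5.0, with every array brought to a mean of 500, and no detection calls were given with them. Only the hybridize date and time were read from the instrument settings files, and the wash rounds were formed from them. The members and gene lists were chosen with earlier results of these data known.

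Signals under 0.1 were set to 0.1 and changed to log2, with no further normalization. From 8799 probe sets 59 controls were removed, leaving 8740, of which 5606 reached a mean of 100 with some diet and were compared. The platform annotation gave 7018 probe sets 1 gene symbol, 308 several and 1473 none. All 9 arrays entered 1 fit by diet in limma 3.58.1 (R 4.3.3) with a variance trend, tested on simulated data first, and every adjusted p is limma's after Benjamini-Hochberg. A probe set was called at an adjusted p under 0.05. Folds are ratios of mean signals. Where all 3 arrays of a diet were under 100 each was set to 100 and the fold is a lower bound. Where both diets were so, no fold is given.

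List genes were represented by their brightest probe set. Named from each list were up to 4 genes called with SPI and up to 2 others called with WPH, by smallest adjusted p, and the names of all called genes where they were few. Likeness was Pearson's r of signals with the 3 nearest genes of a mean of at least 200 with some diet. Precision is limited by 3 arrays per diet. Python 3.11.15 with pandas 2.3.3, numpy 2.4.6, scipy 1.17.1 and matplotlib 3.10.9 did the rest. The alternatives were another floor, filter, offset, normalization or fit, the wash round or the replicate number as a block, comparison within a round, the methods' t-test, and leaving out each array.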

Additional observations from a re-analysis of the deposited data

Results flagged for a closer look

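Lcn2 and 1 of 2 compared Il1a probe sets stood apart because SPI and WPH moved them in opposite directions from CAS and the difference between the 2 diets itself passed the test. For Lcn2 (rc_AA946503_at) the log2 change was 1.47 with SPI and -1.24 with WPH against CAS, and SPI against WPH was 2.71 ± 0.45 (limma adjusted p = 0.00152). For Il1a (D00403_at) it was 1.50 with SPI and -1.17 with WPH, and SPI against WPH was 2.67 ± 0.40 (adjusted p = 0.000839). The other Il1a probe set (D00403_g_at) had a log2 change of 0.05 ± 0.26 with WPH against CAS (adjusted p = 0.899). For Lcn2 the call of SPI against CAS was lost under 9 of 21 alternatives. For Lcn2 and for Il1a on D00403_at the call of WPH against CAS was lost under most of the alternatives, and on D00403_at the change with SPI against CAS turned its sign with the wash round as a block.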

How the results depend on the processing

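The count of called member probe sets with SPI against CAS was 7, and it was 2 with the wash round as a block. The change of Il1a (D00403_at) turned to -0.35 in that fit. Leaving out 1 array at a time gave 5 to 7. With WPH against CAS the count of 5 was 3 with signals under 50 set to 50, 3 with no filter, 3 with no variance trend, 2 with only the compared diets in the fit, 1 with the wash round as a block, 1 within a shared wash round, 2 by the methods' t-test and 1 after Benjamini-Hochberg adjustment of it, 3 with a 2-fold minimum, and 2 to 5 when each array was left out. With SPI against WPH it was 7, and between 5 and 8 under all alternatives. The other alternatives kept each count within 1.5 times. SPI against CAS had no value within a round.

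Replicate numbers did not pair the arrays, since deviations of same-numbered arrays correlated between -0.275 and 0.237. With a replicate block the counts were 6 with SPI against CAS, 4 with WPH against CAS and 7 with SPI against WPH. Of the single changes, 508 values under an alternative kept their side of the threshold, 10 of them with the sign turned and none of these called, while 69 lost a call, 4 gained one and 1 called change turned its sign. Calls of probe sets under 100 are limited by their dim signals.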
